A study of Mus musculus with 10 samples.

Results

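Genes of the citric acid cycle and of fatty acid oxidation were examined in the neonatal mouse cochlea. The set was given by name: 47 enzymes, enzyme regulators, carriers and binding proteins, kept where at least 5 libraries held 10 or more counts. The rule kept 46 of the 47, out of 54532 genes in the count table. Cpt1b, the muscle form of carnitine palmitoyltransferase, fell outside the rule with 2 to 18 counts per library and 10 or more in 1 library only. Fabp4, with 4 to 82 counts and 10 or more in 7 libraries, was the nearest member inside it.

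The citric acid cycle oxidises acetyl-CoA in the mitochondrial matrix and passes the electrons to the respiratory chain. Acetyl-CoA comes from pyruvate, through the pyruvate dehydrogenase complex, or from fatty acids, which are taken up, bound in the cytosol by small binding proteins, activated to acyl-CoA, carried into the matrix on carnitine and shortened by beta-oxidation. Estrogen-related receptors, together with the coactivator encoded by Ppargc1a, are textbook regulators of many of these genes in heart and other oxidative tissues, and ion pumping in the cochlea is known for its demand for energy.

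The study compared the cochlear soft tissue of 2 genotypes of female mice on postnatal day 1. The control genotype was Esrrgfl/fl, in which both copies of Esrrg, the gene of estrogen-related receptor gamma, can be deleted by Cre recombinase. The second genotype, Esrrgfl/fl;Sox10-Cre (conditional knockout, cKO), carried the same floxed alleles and in addition Cre under Sox10. Sox10 is used by otic epithelium, peripheral glia and pigment cells. A deletion passes to the descendants of a cell, so only cells whose lineage never used Sox10 keep Esrrg. Each genotype had 5 libraries, each of 1 animal with both ears pooled, and no library analysed here carried Sox10-Cre without the floxed alleles, so the transgene and the deletion cannot be told apart.

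Library totals ran from 33.5 to 41.8 M counts (M, mega). The tissue label was checked on 13 genes of cochlear epithelium and mesenchyme, among them Coch, Tecta, Otoa and Myo7a: all 13 were tested, none was at 0 in any library, and 0 were called between genotypes. Esrrg itself went against the genotype label. It had 48.5 to 64.7 CPM (counts scaled to a library total of 1000000) in the controls and 70.7 to 109 in the libraries labelled cKO, and the log2 fold change was 0.62 (SE 0.117; edgeR adjusted p 0.0259). Of the 10 fits with 1 library left out, 7 gave an adjusted p above 0.05, from 0.0505 to 0.0992; the call was kept without control 2, cKO 3 or cKO 4. The count covers all exons and cannot show the removal of a part of the gene. The second group is therefore called the libraries labelled cKO, and every direction below rests on that label. As the samples are bulk tissue, fewer cells of a type and less RNA per cell cannot be told apart.

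Of the 46 genes, 1 was lower in the libraries labelled cKO, the fatty acid binding protein gene Fabp3, and 0 were higher (edgeR quasi-likelihood test, Benjamini-Hochberg adjusted p under 0.05 over 17937 genes). In 20 alternative analyses no other member was called, and Fabp3 was called in 12 of them. Over all tested genes 0.546% were called lower and 0.0725% higher. An unadjusted p under 0.05 was found for 5 members with a negative fold change (Fabp3, Fabp5, Acsl6, Idh3a and Mdh1) and for 1 with a positive one, Pdk2, where 5.52% and 4.13% of all tested genes had one. The median log2 fold change of the members was -0.06, beside -0.01 for all tested genes, and 31 of 46 members had a negative value, beside 51.7% of all tested genes. The fold change was under 0.25 log2 units in size for 37 of the 46 members, as for 14132 of the 17937 tested genes, and the members' SE had a median of 0.0936.

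**Figure D1:**
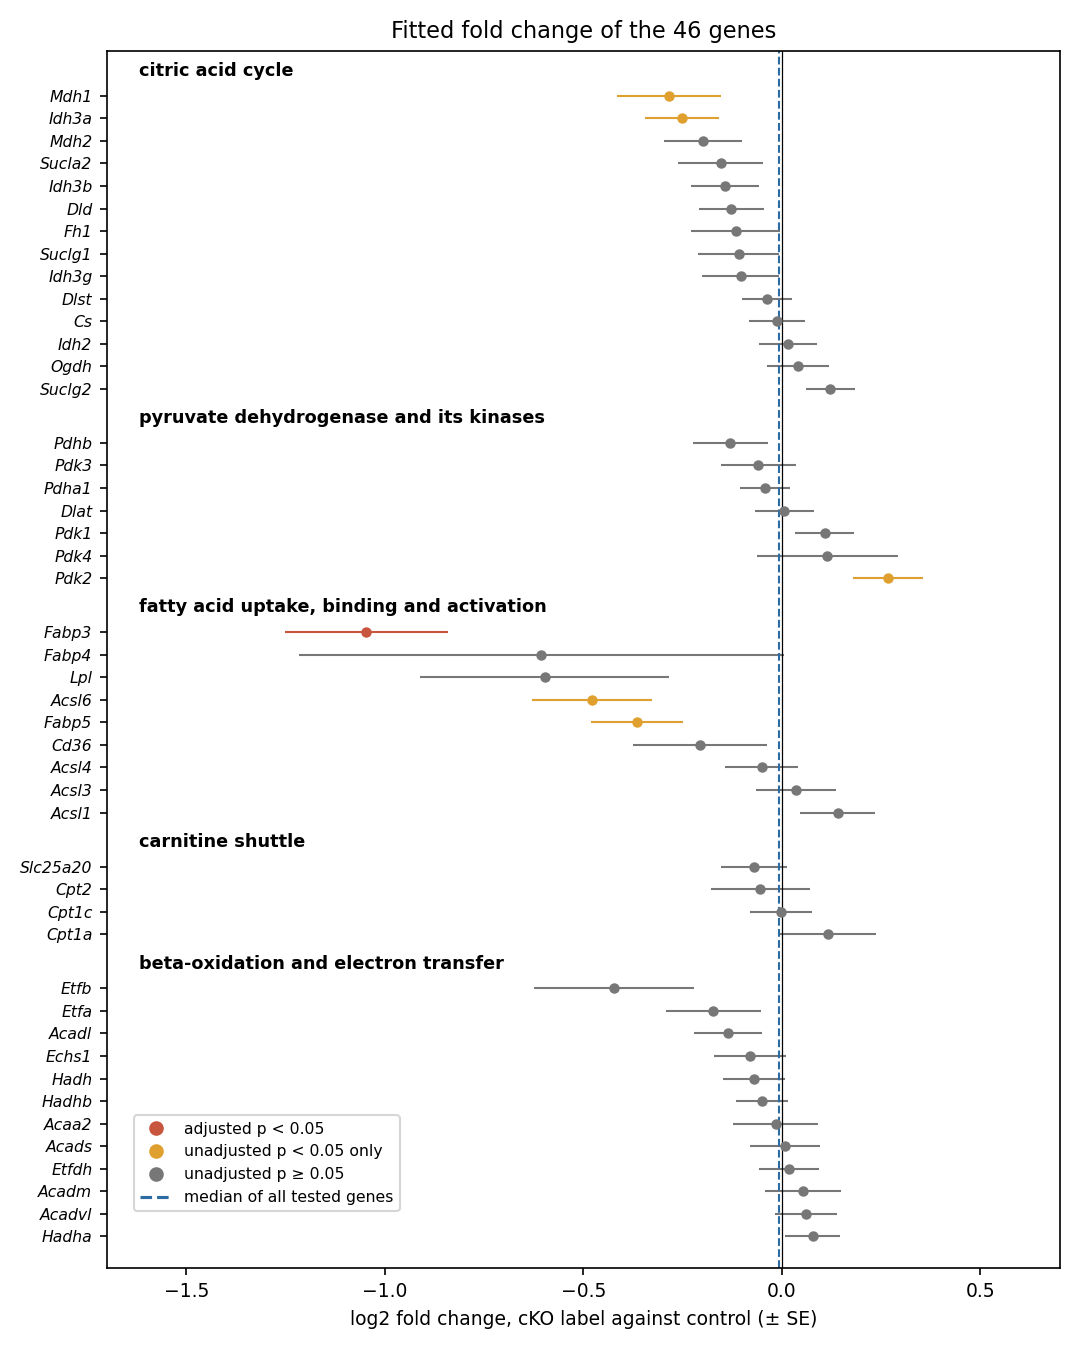
Fitted log2 fold change of each of the 46 genes (horizontal axis, libraries labelled cKO against controls, 5 libraries each, bars ± SE), grouped by function; the colour gives the test result and the dashed line the median of all tested genes. Fabp3, at -1.05, is the 1 gene past the adjusted threshold, and 37 of the 46 points lie within 0.25 of 0.

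Of the 9 genes of fatty acid uptake, binding and activation, 1 was called, 7 had negative and 2 positive fold changes, and the median log2 fold change was -0.37, which was -0.18 without control 5 and -0.16 in limma-voom. Fatty acid binding proteins carry long-chain fatty acids through the cytosol. Fabp3 (ENSMUSG00000028773; GRCm38 chromosome 4, 130308595 to 130315463, plus strand), the heart type, had 16.7, 35.5, 22.9, 19.8 and 20.6 CPM in controls 1 to 5 and 14.8, 12.3, 11.99, 7.92 and 8.96 CPM in the libraries labelled cKO 1 to 5. The groups did not overlap, which was the case for 2.84% of all tested genes (1.64% lower and 1.2% higher in the libraries labelled cKO), and control 2 was the highest library. The mean of Fabp3 was 23.1 ± 7.29 CPM for the controls, against 11.2 ± 2.76 for the other genotype (SD, n = 5 each). The fitted log2 fold change was -1.05 (SE 0.206; edgeR adjusted p 0.0320). Without control 2 the log2 fold change was -0.85 and the adjusted p 0.0192. With 1 library left out, Fabp3 missed the threshold in 7 of 10 cases: without control 3, 4 or 5 and without the libraries labelled cKO 2, 3, 4 or 5, with adjusted p from 0.0510 to 0.116. It was 0.0699 without the filter on low counts, and 7.91e-05 in DESeq2. Each library held 310 to 1264 counts of Fabp3, and its exons share 81 bases with Zcchc17 and 80 bases with Gm10570, both on the opposite strand, of 823 exonic bases.

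The other members of the family were set beside Fabp3. Fabp7, the brain type, known from glia and their precursors, had 115, 215, 129, 118 and 109 CPM in controls 1 to 5 and 87.7, 91.1, 99.8, 84.9 and 62.6 CPM in the libraries labelled cKO 1 to 5. The groups did not overlap, and the log2 fold change of -0.69 (SE 0.176) missed the threshold with an edgeR adjusted p of 0.143; it was 0.0159 in DESeq2 and 0.0228 in limma-voom, and ran up to 0.423 over the 20 alternatives. Without control 2 the log2 fold change was -0.47. Fabp5, the epidermal type, had 36.9, 53.5, 43.7, 40.6 and 44.9 CPM in the controls and 36.8, 37.7, 37.1, 31.7 and 27.2 CPM in the libraries labelled cKO. Its groups overlapped by 1 control library, control 1, and the log2 fold change was -0.37 (SE 0.115; edgeR adjusted p 0.281). Fabp4, the adipocyte type, had at most 2.10 CPM in any library, in control 5, and a log2 fold change of -0.61 with an SE of the same size (0.611). Pmp2, the myelin type, had at most 0.647 CPM, and 1224 of its 1408 exonic bases are shared on the same strand with Gm37389. Fabp1 and Fabp9 were at 0 counts in every library, and Fabp2, Fabp6 and Fabp12 had at most 4 counts. The pseudogene Fabp3-ps1 had 1 to 14 counts.

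**Figure D2:**
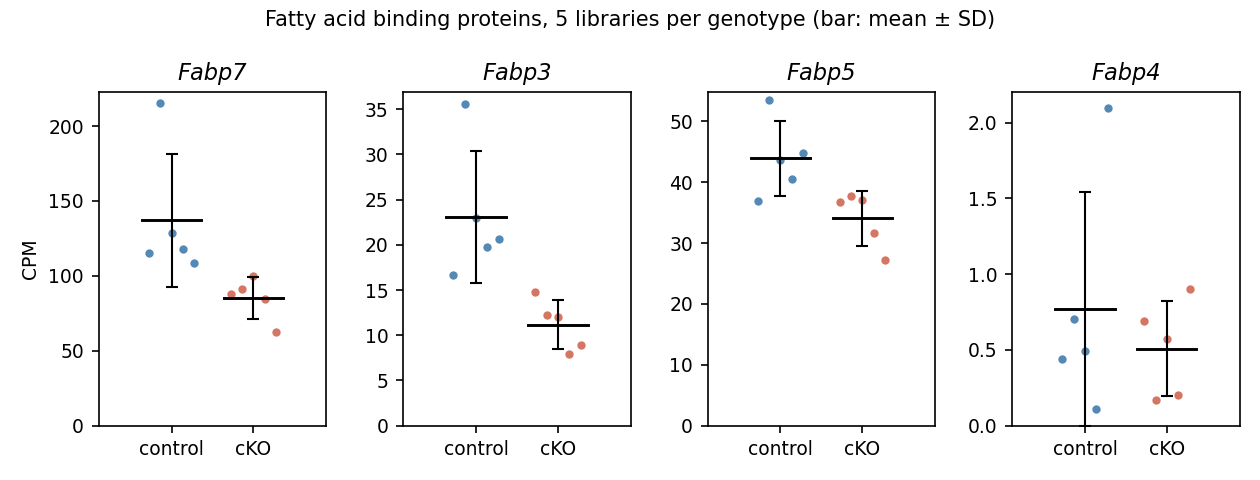
Level in CPM (vertical axis, from 0, with its own scale in each panel) of 4 fatty acid binding protein genes in every library; points are libraries, thick lines the mean and bars ± SD, 5 libraries per genotype. Fabp7 and Fabp3 do not overlap between genotypes, and control 2 is the highest library for Fabp7, Fabp3 and Fabp5.

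Per length, in FPKM (fragments per kilobase of exon, at the same library total), Fabp7 was the most abundant of the family in controls, with 69.4% to 74.8% of the summed FPKM of Fabp3, Fabp4, Fabp5, Fabp7 and Pmp2. Fabp3 followed with 18.6% ± 1.32 and Fabp5 with 8.45% ± 1.27 (SD, n = 5). This order depends on length, as the annotated exons hold 823 bases for Fabp3 and 3567 for Fabp5. By counts Fabp5 was above Fabp3 in controls, with a mean of 43.9 against 23.1 CPM. The size of the Fabp3 to Fabp5 ratio in FPKM depends on length in the same way. In the libraries labelled cKO the shares were 74.3% ± 2.91 for Fabp7, 14.8% ± 2.60 for Fabp3 and 10.5% ± 0.452 for Fabp5. The ratio of Fabp3 to Fabp5 in FPKM was 1.96 to 2.88 in the controls and 1.08 to 1.74 in the libraries labelled cKO, with no overlap. The ratio of Fabp3 to Fabp7 was 0.221 to 0.288 in the controls and 0.142 to 0.256 in the libraries labelled cKO, with overlap.

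Markers of cells known to use these binding proteins were read in the same libraries. As shares of all tested genes, 0.546% were called lower and 0.0725% higher. At an unadjusted p under 0.05, 5.52% were lower and 4.13% higher. Of 12 genes of Schwann cells and satellite glia, which include Fabp7, 0 were called, 6 had a negative fold change at an unadjusted p under 0.05, and the median log2 fold change was -0.42. Without Fabp7 their summed level was 1120 to 1202 CPM in the controls and 768 to 1215 in the libraries labelled cKO, and none was at 0 in any library. Of 11 genes of supporting and prosensory cells, 1 was called, Fgf10, which was lower, and their sum was 1038 to 1209 against 917 to 1084 CPM. The median log2 fold change of the 11 was -0.12, with 8 negative and 3 positive values. An unadjusted p under 0.05 was found for 3 negative and 0 positive. Of 12 genes of spiral ganglion neurons, 3 were called, all lower, among them Elavl4 and Slc17a7, and the sum of the 12 was 1158 to 1237 against 686 to 1314 CPM. Their median log2 fold change was -0.32, with 10 negative and 2 positive values, and an unadjusted p under 0.05 was found for 5 negative and 1 positive. Of 9 tested genes on a list for brain tissue, 5 were called, all lower (Olig1, Olig2, Aqp4, Cbln1 and Slc6a11). The sum of the 12 on the list was 144 to 165 against 132 to 157 CPM, and their mean log2 CPM was 1.88 to 2.00 against 1.27 to 1.48. The 10 macrophage genes, of which 0 were called, summed to 314 to 372 against 373 to 447 CPM. The part of these cells in the values of Fabp3, Fabp5 and Fabp7 was not tested. Genes of muscle, where Fabp3 is abundant, were low in all libraries: the 10 skeletal muscle genes summed to 3.85 to 6.37 CPM in controls and 4.78 to 5.94 in the libraries labelled cKO, with Myh3, Ckm and Tnnc2 at 0 in some libraries, and the 6 heart genes summed to 6.33 to 9.65 CPM over all libraries.

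Fatty acids enter cells after lipoprotein lipase (Lpl) frees them from triglyceride, and through the scavenger receptor Cd36. Lpl had 3.62, 9.31, 7.54, 5.65 and 14.5 CPM in controls 1 to 5 and 3.51 to 7.71 CPM in the libraries labelled cKO, and the log2 fold change was -0.60 (SE 0.313; edgeR adjusted p 0.578). Cd36 had 10.4 to 13.6 CPM in the controls and 6.93 to 13.97 in the libraries labelled cKO, with an adjusted p of 0.7095. The groups overlapped for both genes. Lpl, Cd36 and Fabp4 are known from fat and capillaries. Of 8 adipocyte genes, Adipoq, Cidec, Lep, Cfd, Retn and Pck1 were at 0 in at least 1 library, and Plin1 and Cidea in none. The 8 summed to 1.47 to 1.83 CPM in controls and 1.48 to 2.57 in the libraries labelled cKO, and 1 was tested (log2 fold change 0.33, not called). The 10 endothelial genes summed to 563 to 688 CPM in controls and 633 to 678 in the libraries labelled cKO, with 0 called. The sum of 10 red blood cell genes was 810 to 3055 CPM in the controls and 505 to 1344 in the libraries labelled cKO. Without Tfrc it was 714 to 2968 CPM in the controls and 444 to 1296 in the libraries labelled cKO. All 8 tested genes had negative fold changes, with a median of -0.74 log2 units, and 1 was called, Tfrc, which was lower.

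Long-chain acyl-CoA synthetases activate fatty acids. Acsl3, known from lipid droplets and the endoplasmic reticulum, was the main form, with 70.1% ± 2.59 of the summed FPKM of the 4 forms in controls and 71.0% ± 1.66 in those labelled cKO (SD, n = 5 each). Its level was 129, 139, 122, 116 and 128 CPM in controls 1 to 5 and 150.4, 98.7, 134, 135 and 131 CPM in the libraries labelled cKO 1 to 5, a log2 fold change of 0.04 (SE 0.1002). Acsl6, known from neurons, was the least abundant form, at 3.63% ± 0.344 and 2.56% ± 0.447 of the summed FPKM. Acsl6 had 14.7, 13.8, 14.2, 16.2 and 15.7 CPM in the controls and 14.5, 8.61, 12.1, 7.79 and 10.5 CPM in the libraries labelled cKO. Of the latter, cKO 1 lay within the controls and the other 4 below them, and the log2 fold change was -0.48 (SE 0.151; edgeR adjusted p 0.281). Acsl1 and Acsl4 had adjusted p of 0.649 and 0.878.

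Promoters were searched for the sequence bound by estrogen-related receptors, since these receptors are the subject of the knockout. RefSeq promoters on GRCm38.p6, 250 bases before to 50 after a gene's start, were at hand for 41 of the 47 genes (51 promoters). None was at hand for Fabp5, Idh3a, Fabp4, Lpl, Acaa2 and Cpt1b, and sequence outside these windows was not searched. The response element TCAAGGTCA, on either strand, was in 1 of the 51, at Acsl6, and in 0.423% of all 32851 promoters. The half-site AAGGTCA, which is contained in that element, was in 3 of the 51 (5.88%), at Acsl6, Ogdh and Acadm, and in 4.72% of all promoters. The letters were not in the window of Fabp3, the 1 called member. These 4 windows are shown, each 5′ to 3′ on the strand of its gene. In the first 3, capitals mark the element or half-site, here read on the opposite strand as TGACCTTGA or TGACCTT, and in Fabp3 capitals mark the 50 bases after the start. The windows lie at chr11:54303574-54303873 (plus strand) for Acsl6, chr11:6291920-6292219 (plus strand) for Ogdh, chr3:153944594-153944893 (minus strand) for Acadm and chr4:130308488-130308787 (plus strand) for Fabp3. Acsl6 has 3 and Ogdh 6 promoters in the table, of which 1 each held a match.
Acsl6: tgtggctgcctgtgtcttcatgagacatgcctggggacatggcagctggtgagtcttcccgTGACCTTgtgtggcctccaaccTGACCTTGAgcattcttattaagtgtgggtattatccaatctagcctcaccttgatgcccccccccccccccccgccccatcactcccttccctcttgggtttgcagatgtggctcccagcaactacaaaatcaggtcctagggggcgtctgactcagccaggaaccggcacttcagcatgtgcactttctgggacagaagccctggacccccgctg
Ogdh: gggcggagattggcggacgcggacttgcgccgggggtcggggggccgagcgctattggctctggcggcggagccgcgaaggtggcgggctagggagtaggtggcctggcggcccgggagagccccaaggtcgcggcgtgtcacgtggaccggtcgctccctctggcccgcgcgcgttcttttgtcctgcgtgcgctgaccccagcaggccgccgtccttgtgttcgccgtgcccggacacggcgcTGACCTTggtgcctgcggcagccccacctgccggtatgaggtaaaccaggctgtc
Acadm: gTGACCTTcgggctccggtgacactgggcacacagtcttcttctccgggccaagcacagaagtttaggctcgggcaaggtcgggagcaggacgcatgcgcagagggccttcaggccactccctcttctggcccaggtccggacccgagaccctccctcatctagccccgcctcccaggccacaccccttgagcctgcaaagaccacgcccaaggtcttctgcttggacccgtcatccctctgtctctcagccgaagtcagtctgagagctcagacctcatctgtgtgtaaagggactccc
Fabp3: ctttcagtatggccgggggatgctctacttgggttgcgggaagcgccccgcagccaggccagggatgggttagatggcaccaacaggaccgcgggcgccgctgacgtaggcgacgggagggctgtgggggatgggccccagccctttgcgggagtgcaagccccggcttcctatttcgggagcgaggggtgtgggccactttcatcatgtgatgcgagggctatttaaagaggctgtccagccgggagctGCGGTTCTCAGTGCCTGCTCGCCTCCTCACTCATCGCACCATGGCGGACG

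The carnitine shuttle moves acyl groups into the matrix. Its entry enzyme, carnitine palmitoyltransferase 1, was present mainly as Cpt1a, the liver form, with 80.3% ± 3.43 of the summed FPKM of the 3 forms in controls and 81.6% ± 3.24 in those labelled cKO (SD, n = 5 each). Cpt1c, the form known from neurons, took 19.5% ± 3.40 and 18.3% ± 3.19. Cpt1b, the muscle form, took at most 0.405% in every library, but 2744 of its 3372 exonic bases are shared on the same strand with Gm44502. How reads of that pair were counted was not tested. Cpt1a had 136, 88.3, 118, 122 and 116 CPM in controls 1 to 5 and 97.2, 142, 139, 127 and 123 CPM in the libraries labelled cKO 1 to 5. Both groups had 1 low library, control 2 and cKO 1, and the log2 fold change was 0.12 (SE 0.120; edgeR adjusted p 0.773). It was 0.022 without control 2, 0.19 without cKO 1 and 0.062 without cKO 2. Over the 4 tested genes, which include Cpt2 and the carrier Slc25a20, the median log2 fold change was -0.03, which was 0.027 without cKO 2, with values from -0.07 to 0.12 and 0 genes at an unadjusted p under 0.05.

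**Figure D3:**
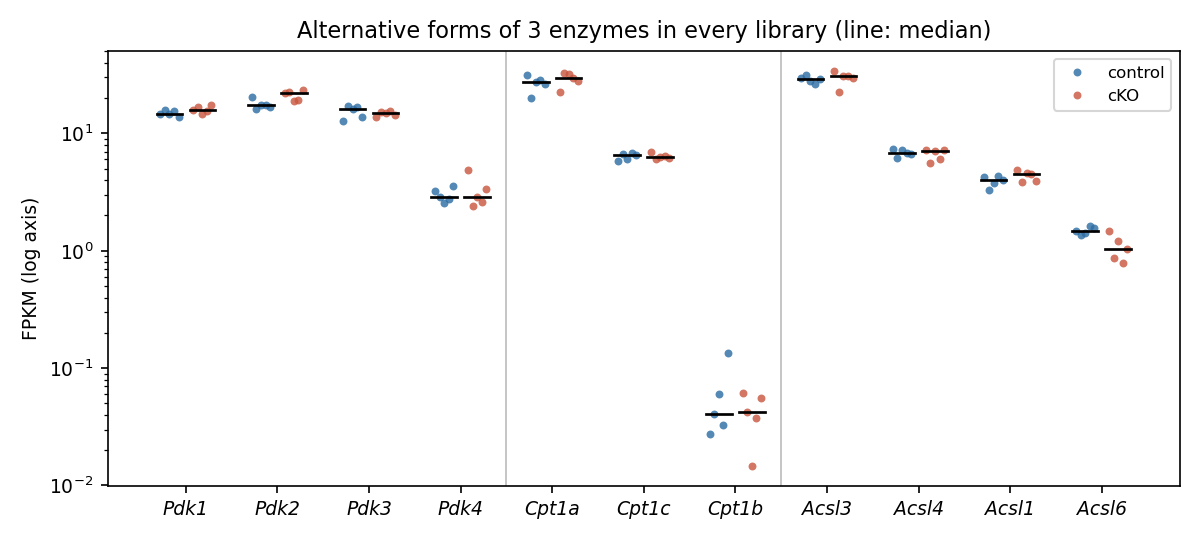
Level in FPKM (vertical axis, log scale) of the alternative forms of pyruvate dehydrogenase kinase (Pdk), carnitine palmitoyltransferase 1 (Cpt1) and long-chain acyl-CoA synthetase (Acsl) in every library; points are libraries, lines medians, 5 libraries per genotype. Cpt1a and Acsl3 are the main forms of their families in both genotypes, Cpt1b is the lowest, and Pdk1, Pdk2 and Pdk3 lie close together.

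Beta-oxidation shortens acyl-CoA in repeated rounds, and electron transfer flavoprotein hands its electrons to the respiratory chain. Of 12 genes, 0 were called, as 0 reached an unadjusted p under 0.05. The median log2 fold change was -0.03, 7 values were negative and 5 positive, and the range was -0.42 to 0.08. Without control 2 the median was 0.016. Acaa2, the thiolase of the last step, was the most abundant per length in controls with 51.2 ± 7.80 FPKM, against 50.8 ± 5.31 FPKM in those labelled cKO (SD, n = 5 each). It had 81.8, 98.5, 69.8, 71.2 and 69.7 CPM in controls 1 to 5 and 73.0, 88.5, 81.7, 75.2 and 68.6 CPM in the libraries labelled cKO 1 to 5, and the groups overlapped throughout (log2 fold change -0.02, SE 0.107, edgeR adjusted p 0.971).

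The acyl-CoA dehydrogenases, which open each round, differed in level: Acadl (long chain) had 47.7 ± 5.65 FPKM in controls, Acadm (medium chain) 18.7 ± 2.71, Acads (short chain) 16.3 ± 1.79 and Acadvl (very long chain) 15.7 ± 1.12 (SD, n = 5). The ranges of the last 3 overlapped. The edgeR adjusted p of the 4 lay between 0.635 and 0.984. For Acadvl, 1151 of 2686 exonic bases are shared with Dvl2 on the opposite strand. The enzymes of the later steps, Hadh, Hadha, Hadhb and Echs1, had log2 fold changes between -0.08 and 0.08, and Etfdh, which passes the electrons on, had 0.02. Etfb, a subunit of electron transfer flavoprotein, had the smallest p of the group. It had 6.09, 12.2, 6.93, 6.79 and 6.496 CPM in controls 1 to 5 and 6.51, 6.09, 5.62, 6.56 and 3.94 CPM in the libraries labelled cKO 1 to 5. Control 2 stood above and cKO 5 below the others, and the log2 fold change of -0.42 (SE 0.202, adjusted p 0.527) was -0.20 without control 2. The level of Etfb was low beside its partner Etfa, 6.55 ± 2.11 against 41.3 ± 8.14 FPKM in controls, and 617 of its 1164 exonic bases are shared on the same strand with Gm45233.

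The pyruvate dehydrogenase complex, which turns pyruvate into acetyl-CoA, and the kinases that switch it off gave 0 calls over 7 genes, with log2 fold changes at a median of 0.01 and in a range of -0.13 to 0.27. The median was -0.027 without control 4, -0.021 without control 5, -0.032 without cKO 1 and -0.025 without cKO 3. Pdha1, its first subunit, had 141, 143, 150.3, 143 and 141 CPM in controls 1 to 5 and 134, 143, 149, 133 and 138 CPM in the libraries labelled cKO 1 to 5 (log2 fold change -0.04, SE 0.0632, edgeR adjusted p 0.845). Of its 3734 exonic bases, 603 are shared with Map3k15 on the opposite strand. Pdhb, the other subunit of that enzyme, had -0.13 and Dlat, the acetyltransferase, 0.01. Among the kinases, Pdk2 had 64.6, 52.4, 55.4, 55.1 and 54.1 CPM in the controls and 70.8, 71.3, 59.7, 61.5 and 76.1 CPM in the libraries labelled cKO. Control 1 lay among the latter and the other 4 controls below them, and the log2 fold change was 0.27 (SE 0.0883, adjusted p 0.306). Pdk4, the kinase known to rise on fasting, had 8.96 to 12.6 CPM in the controls and 8.49 to 17.3 in the libraries labelled cKO. In controls Pdk2 took 34.8% ± 3.29 of the summed FPKM of the 4 kinases, Pdk3 30.05% ± 3.31, Pdk1 29.3% ± 0.758 and Pdk4 5.89% ± 0.987 (SD, n = 5), and the first 2 overlapped in range. This order depends on length, with 7779 exonic bases for Pdk1 and 3163 for Pdk2. By counts Pdk1 was the highest of the 4 kinases, with a control mean of 117 CPM against 56.3 for Pdk2.

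Of 14 citric acid cycle genes, 0 were called, 11 had negative and 3 positive fold changes, and the median log2 fold change was -0.11, with a range of -0.28 to 0.12. Without control 2 the median was -0.04. The most abundant per length in controls were Mdh1, the cytosolic malate dehydrogenase, with 98.9 ± 23.9 FPKM, mitochondrial isocitrate dehydrogenase Idh2 with 75.7 ± 5.93 and the mitochondrial malate dehydrogenase Mdh2 with 55.3 ± 8.71, and the lowest per length was Dlst, a subunit of the 2-oxoglutarate dehydrogenase complex, with 11.9 ± 0.472 FPKM (SD, n = 5). Dlst has 9559 annotated exonic bases, and by counts it was not the lowest, with a control mean of 115 CPM against 69.4 for Idh3a. Mdh1 had 226, 369, 240.2, 235 and 211 CPM in controls 1 to 5 and 230, 209, 211, 208 and 194 CPM in the libraries labelled cKO 1 to 5. Control 2 lay far above all others, and the log2 fold change of -0.28 (SE 0.131, edgeR adjusted p 0.513) was -0.13 without it.

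Idh3a, the catalytic subunit of the NAD-dependent isocitrate dehydrogenase, had the smallest p of the group. It had 63.8, 77.9, 73.4, 69.0 and 62.8 CPM in controls 1 to 5 and 63.0, 55.5, 66.0, 58.0 and 48.9 CPM in the libraries labelled cKO 1 to 5. The groups overlapped in cKO 1 and cKO 3, and the log2 fold change was -0.25 (SE 0.0938; edgeR adjusted p 0.399). The other subunits, Idh3b and Idh3g, had adjusted p of 0.623 and 0.749. Dld, the dehydrogenase that several complexes share, had a log2 fold change of -0.13, the succinyl-CoA ligase subunits Sucla2 and Suclg1 had -0.15 and -0.11, and fumarase (Fh1) had -0.12, with adjusted p from 0.638 to 0.755. The citrate synthase gene Cs, which opens the cycle, had 171 to 197 CPM in the controls and 172 to 194 in the libraries labelled cKO. Suclg2, the GDP-forming subunit of succinyl-CoA ligase, had the highest positive value of the group, 0.12 (SE 0.0627, adjusted p 0.569), with 89.9 to 93.8 CPM in controls and 93.3 to 104.5 in the libraries labelled cKO.

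One control library, control 2, stood apart in these groups, and at an end of the controls for many other genes. It was the highest of the 5 controls for 30 of the 46 members, or 65.2%, beside 36.5% of all tested genes. The same held for 11 of 14 citric acid cycle and 10 of 12 beta-oxidation genes. Control 2 was the lowest control for 7 of the 46 members, and for 6090 of the 17937 tested genes. The mean log2 CPM of the citric acid cycle genes was 7.16 in control 2, 6.82 to 6.96 in the other controls and 6.75 to 6.91 in the libraries labelled cKO. For beta-oxidation the values were 6.25, 5.86 to 5.96 and 5.85 to 5.99. For the 47 respiratory chain genes of the nucleus matched to the table, which receive the electrons of both pathways, control 2 was the highest control for 47 of 47. Their median log2 fold change was -0.28, and -0.13 without control 2. All 47 values were negative, beside 51.7% of all tested genes. There were 0 calls, and 21 had a negative fold change at an unadjusted p under 0.05, where 5.52% of all tested genes did. The groups did not overlap for 5 of the 47, all lower in the libraries labelled cKO, beside 1.64% of all tested genes. Without control 2 the median of the 46 members was -0.03, and 30 of the 46 values were negative, beside 31 with it.

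**Figure D4:**
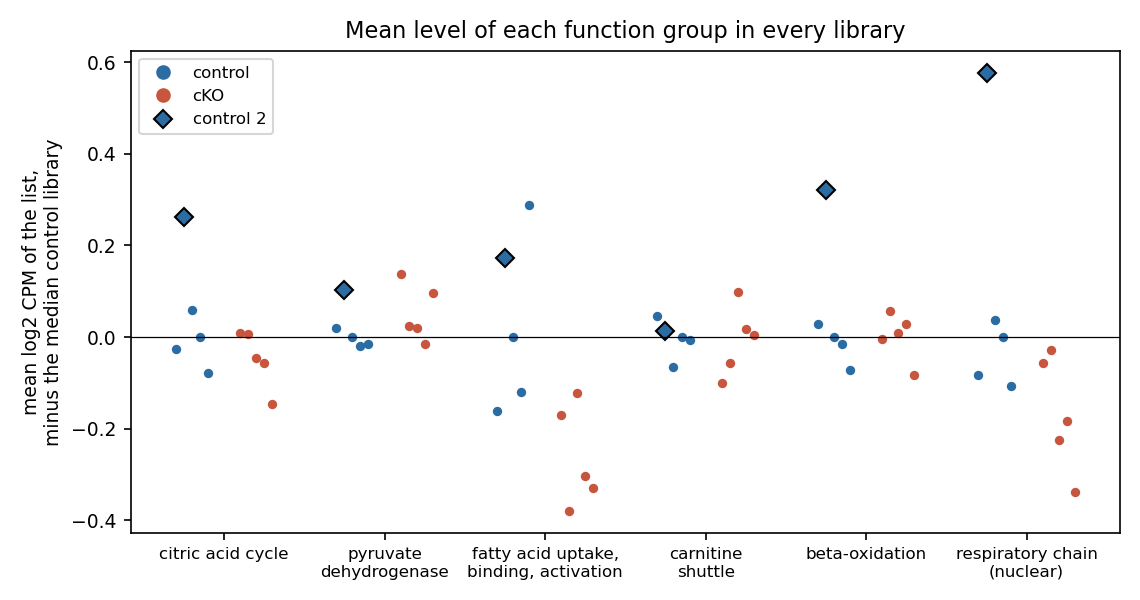
Mean log2 CPM of the 5 function groups and of 47 nuclear respiratory chain genes in every library, minus the median control library (vertical axis); circles are libraries and the outlined diamond is control 2. Control 2 lies above the other controls for the citric acid cycle, pyruvate dehydrogenase, beta-oxidation and the respiratory chain, and the other controls overlap with libraries labelled cKO in all 6 columns.

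Further genes of the pathways were read from further lists. Of 88 tested genes in 6 such lists, 0 were called (edgeR adjusted p under 0.05), and the median log2 fold change of the 88 was 0.01. At an unadjusted p under 0.05, 9 had a negative and 6 a positive fold change, where 5.52% and 4.13% of all tested genes did. In either direction the share over all tested genes was 9.65%. Among 24 genes of the cycle and of pyruvate entry, with a median of -0.10, unadjusted p under 0.05 was found for 5, among them Pdhx (-0.26), a structural subunit of pyruvate dehydrogenase, Got1 (-0.26), an aminotransferase of the malate-aspartate shuttle, Sdhb (-0.28), a succinate dehydrogenase subunit, and Me3 (0.25), a mitochondrial malic enzyme. Sdhb was -0.14 without control 2. Among 25 genes of accessory and peroxisomal oxidation and ketone bodies, with a median of -0.01, there were 4, among them Bdh1 (-0.38), which interconverts ketone bodies, Acat1 (-0.19) and Acad11 (0.22). Bdh1 had 41.0, 60.7, 50.8, 48.5 and 47.6 CPM in controls 1 to 5 and 39.4, 41.1, 42.3, 34.8 and 33.6 CPM in the libraries labelled cKO, with an adjusted p of 0.187 that was 0.0464 in limma-voom and up to 0.477 over the 20 alternatives; 533 of its 3888 exonic bases are shared with Gm15743 on the opposite strand.

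Of 15 tested genes of uptake and activation, 12 had positive values, with a median of 0.10; those at an unadjusted p under 0.05 were Acsbg1 (-0.34), an acyl-CoA synthetase, and Pnpla2 (0.33), the triglyceride lipase that frees fatty acids from droplets. The 8 genes of carnitine metabolism and malonyl-CoA had a median of 0.05 and 0 such genes. Of 14 regulators of oxidative metabolism, with a median of 0.12, there were 3. The coactivator gene Ppargc1a had 22.7, 17.96, 23.4, 25.1 and 24.1 CPM in controls 1 to 5 and 19.3, 14.7, 18.2, 13.97 and 18.3 CPM in the libraries labelled cKO 1 to 5. Here control 2 was the lowest control and the 1 that overlapped, together with cKO 1, cKO 3 and cKO 5, which exceeded it. The log2 fold change was -0.42 (SE 0.119; edgeR adjusted p 0.192). The adjusted p was 0.0230 without control 2 and 0.0122 in limma-voom, and ran from the latter to 0.428 over the 20 alternatives. The nuclear receptor genes Rxra and Ppard, a partner receptor and a fatty acid sensor, differed by 0.23 (SE 0.0883) and 0.21 (SE 0.0804) on the log2 scale, both at an adjusted p of 0.430.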

How the data were processed

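Messenger RNA was measured in cochlear soft tissue of 10 mice. The authors deposited whole-number counts per Ensembl gene and FPKM values for the same 54532 genes. STAR 2.5, HTSeq 0.61, DESeq2 and the build mm10 are listed per the submitters' processing notes, without roles; which annotation was used, and whether strand was, is not given in the sources used here, so exon overlaps are stated. Symbols and positions came from GENCODE M21 on GRCm38, which held 54495 of the gene IDs. FPKM served to compare levels between genes and in alternative fits. Its length was within 5% of all annotated exons for 96.4% of 13928 genes with 50 or more counts in every library. Ranks in FPKM therefore depend on the annotated exons, not only on the transcripts in use.

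Deposited counts were filtered with filterByExpr (minimum 10 counts, 17937 genes left), scaled by TMM factors to CPM and compared with edgeR 4.0.16 (quasi-likelihood test, robust, genotype as the only term) in R 4.3.3; SE came from the F statistic, and p-values were adjusted over all tested genes by the Benjamini-Hochberg method. The procedure was tested on simulated data. Alternatives used DESeq2 1.42.0 and limma 3.58.1. Members, lists and alternatives were chosen with earlier results of these data known. Members called, or at an unadjusted p under 0.05, are given by library, with the smallest p and the highest control FPKM of each function group; genes of other lists are named at an unadjusted p under 0.05, up to 4 per list, and some results are not reported here. Lpl, Cd36, Cs and the other members given individually were chosen after their values were seen.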

Additional observations from a re-analysis of the deposited data

Results flagged for a closer look

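In 68 measures, each examined in both groups of 5 libraries, Dixon's test set 1 library apart from its group 14 times; by chance about 5% of the 136 groups, 6.8, would be. Of these, 12 fell on control 2, and measures that share a library are not independent. In CPM, control 2 was high for Mdh1 (369, others 211 to 240.2), Mdh2 (257, others 177 to 191), Sucla2 (132, others 86.8 to 96.7), Fh1 (105, others 68.3 to 78.6), Pdhb (139, others 96.2 to 107), Echs1 (123, others 91.2 to 98.2), Etfa (104, others 66.2 to 74.8), Etfb (12.2, others 6.09 to 6.93), Fabp7 (215, others 109 to 129) and Sdhb (149.6, others 90.1 to 101). The mean log2 CPM of control 2 was high over the beta-oxidation genes (6.25, others 5.86 to 5.96) and over all 46 members (6.07, others 5.82 to 5.86).

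The other 2 were Pdha1 in control 3 (150.3 CPM, others 141 to 143) and Pdk2 in control 1 (64.6 CPM, others 52.4 to 55.4).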

How the results depend on the processing

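Over 20 alternatives, 32 of the 46 members kept their sign in all, and Fabp3 was the 1 member called in any of them. Over all genes, DESeq2 called 238 lower and 50 higher, and limma-voom 290 and 50; with 1 library left out the counts were 44 to 178 lower and 8 to 19 higher. Without the filter on low counts 0 members were called, as Fabp3 (-1.04) had an adjusted p of 0.0699 over more genes; with 1 library left out, 0 to 1 members were called and Fabp3 ran from -1.17 to -0.85. Esrrg was no longer called with the replicate block (0.61, adjusted p 0.0562) or in limma on log2(FPKM + 1) (0.57) and log2(FPKM + 0.1) (0.61), and ran from 0.54 to 0.70 with 1 library left out. The median of the uptake, binding and activation genes, -0.37, was -0.16 in limma-voom, -0.17 on log2(FPKM + 1) and -0.42 to -0.18 with 1 library left out, the last without control 5. Signs changed for Acaa2 (0.080 in limma-voom; -0.070 to 0.071 with 1 library left out), Acsl3 (-0.025 to 0.12) and Pmp2 (-0.25 in limma-voom; -0.15 to 0.46). Group medians near 0 changed sign too: beta-oxidation (0.016 without control 2, 0.021 in limma-voom), the carnitine shuttle (0.027 without cKO 2, 0.029 in limma-voom) and pyruvate dehydrogenase (down to -0.032, without cKO 1). In all, 14 members changed sign in at least 1 alternative, Cpt1c in 11 and Acads in 7. The cause was not tested. No label says that the shared replicate numbers pair libraries, and not every pair correlated above 0.1, so the block was not used as the main design. The correlations of deviations between same-numbered libraries ran from -0.01 to 0.24, and 3 of 5 controls correlated best with their own number. With the replicate block 101 genes were called against 111, with Fabp3 at -1.03 among them and Fabp7 (adjusted p 0.0407) added. Nothing says how animals relate, and the p-values of the main design treat the libraries as independent. Fabp4 and Pmp2, at few counts, allow no statement.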

Other observations

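The 13 protein-coding transcripts of the mitochondrial genome, whose products take part in the respiratory chain, summed to 20250 to 21740 CPM in controls and 18490 to 23930 in the libraries labelled cKO. The groups overlapped, 0 were called, and the median log2 fold change was -0.07, with 11 negative and 2 positive values. A negative fold change at an unadjusted p under 0.05 was found for 2, and for 5.52% of all tested genes. Control 2, at the top of the controls for all 47 nuclear genes of the chain, was the highest control for 8 of these 13.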
